A study of Mus musculus with 4 samples.

Results

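Core transcription factors of blood formation, encoded by 10 genes, were examined. They were chosen by name as factors of haemogenic endothelium and blood progenitors outside the GATA family, and all 10 were found among the 23337 gene symbols counted. They comprise Runx1, Tal1, Lyl1, Lmo2, Erg, Fli1, Sfpi1 (the older symbol of Spi1, which encodes PU.1), Gfi1, Gfi1b and Myb. RNA came from lymphatic endothelial cells of mouse embryos at day 14.5, from wild type litters or from homozygous mutants with a deletion that the labels do not locate. Sorting took cells of the dorsal anterior region with LYVE1 and VECAD (CD144) and without CD45, which marks leukocytes, from a whole litter pooled per genotype. Of each sort, 1 part was lysed at once (before culture). The other part was kept for 7 days on OP9 stromal feeder cells with the cytokines FLT3L, IL3 and SCF at 100 ng/ml each, and cells with LYVE1 and VECAD were sorted again (after culture). The labels state no CD45 exclusion for the later sort. Each of the 4 groups holds 1 library. The series title names an enhancer bound by GATA2, and the culture was meant to assess the capacity to form blood.

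Blood cells of the embryo arise from haemogenic endothelium, a specialised endothelium that turns into round blood progenitors. RUNX1 is the factor this transition requires, and GFI1 and GFI1B are repressors that act below RUNX1 to shut off endothelial genes. TAL1 or LYL1, which bind DNA as basic helix-loop-helix (bHLH) proteins, join the adaptor LMO2 and the scaffold LDB1 in a complex that also holds GATA factors, and the ETS factors ERG and FLI1 occupy many of the same enhancers. Erg, Fli1, Tal1 and Lmo2 are also genes of normal endothelium, whereas MYB and PU.1 mainly serve blood progenitors and myeloid and lymphoid cells. Lymphatic endothelium is not known as a source of blood.

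The starts of 3 members that rose after culture and of 1 that fell are shown to let a reader see which binding letters of these factors' own families lie there. RefSeq promoters on GRCm38.p6 were matched for 7 of the 10 members. Lmo2, Fli1 and Sfpi1 had no entry in the table used. Each line gives the 250 bases upstream of an annotated start, 5′ to 3′ on the gene's strand. Where a gene has several windows, the window printed is the first with the most matches among those clear of annotated exons on its strand. Capitals mark letters matched, on either strand, by a GATA motif (AGATAA), a RUNX motif (TGTGGT), an ETS motif (GGAAG) or an E-box (CANNTG, bound by bHLH factors).
Runx1 proximal start, chr16:92697330-92697579, minus strand: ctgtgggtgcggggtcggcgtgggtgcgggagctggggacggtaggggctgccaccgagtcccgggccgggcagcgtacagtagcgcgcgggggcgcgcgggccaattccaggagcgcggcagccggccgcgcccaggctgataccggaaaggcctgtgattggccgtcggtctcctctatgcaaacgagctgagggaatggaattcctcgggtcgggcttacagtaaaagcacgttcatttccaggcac
Tal1, chr4:115056176-115056425, plus strand: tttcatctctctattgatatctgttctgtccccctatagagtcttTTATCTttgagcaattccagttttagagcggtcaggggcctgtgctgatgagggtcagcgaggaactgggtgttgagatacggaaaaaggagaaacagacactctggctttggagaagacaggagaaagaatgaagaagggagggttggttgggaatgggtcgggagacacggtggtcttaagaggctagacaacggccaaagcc
Erg, innermost of 3 starts, chr16:95459349-95459598, minus strand: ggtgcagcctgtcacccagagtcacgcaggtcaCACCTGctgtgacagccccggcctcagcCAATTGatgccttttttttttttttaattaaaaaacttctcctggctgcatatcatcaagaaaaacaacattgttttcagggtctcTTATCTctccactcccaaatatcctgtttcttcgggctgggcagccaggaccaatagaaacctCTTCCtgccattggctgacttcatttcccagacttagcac
Myb, chr10:21160985-21161234, minus strand: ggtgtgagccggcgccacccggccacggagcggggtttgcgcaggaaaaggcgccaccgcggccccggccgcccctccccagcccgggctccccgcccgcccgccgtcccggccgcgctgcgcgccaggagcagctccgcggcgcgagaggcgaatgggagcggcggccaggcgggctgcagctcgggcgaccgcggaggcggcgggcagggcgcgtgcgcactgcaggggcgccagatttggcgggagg
The Tal1 window holds 1 GATA match and the Erg window holds 1 GATA match, 1 ETS match and 2 E-boxes. The printed windows of Runx1 and Myb hold none of these letters. The distal Runx1 window, not printed since it overlaps an annotated exon on its strand, holds 1 ETS match and 3 E-boxes. The second Tal1 window and the second Erg window each hold 1 ETS match. Among all 32851 promoter windows of the same length in the table, 9.99% held the GATA motif, 14.1% the RUNX motif, 64.1% the ETS motif and 66.2% an E-box. Printed windows were picked for the most matches, so these shares of single windows are not a like measure for Tal1 and Erg. None of the 12 windows of the members held the RUNX letters. No match marked here overlapped another in the printed windows, and a match describes letters only.

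Gene counts per library ran from 1694669 (cultured wild type cells) to 7943587 (fresh mutant cells). Levels are TMM-scaled CPM, the unit for counts relative to library size, with exact Poisson 95% intervals, which cover counting error only. Of the 8 pan-endothelial markers 7 rose with culture and 1 fell, in the edgeR fit of culture, and their summed level was 3728 and 3965 CPM before culture in wild type and mutant cells and 8507 and 7941 CPM after it. The 7 lymphatic markers summed to 5413 to 6614 CPM in the 4 libraries, but Ccl21a was at 0 in all of them, and Pdpn in the wild type library after culture. Lyve1, used in the sort, rose with culture, whereas 4 of the 6 lymphatic markers tested fell, among them Prox1, the master factor of lymphatic identity, from 507 and 487 CPM in wild type and mutant cells to 207 and 137 CPM. Of the leukocyte list of 9 genes, the summed level was 147 and 153 CPM before and 253 and 275 CPM after culture. Lcp1 and Hcls1 rose and carried that sum, whereas Ptprc and Laptm5 fell and the median log2 fold of the 7 genes tested was -0.76. Ptprc, which encodes CD45, had 91 counts in fresh wild type, 118 in fresh mutant, 6 in cultured wild type and 26 in cultured mutant cells. Of 8 stromal markers 6 fell, the sum going from 3280 and 5236 CPM to 1174 and 980.2 CPM. In the same fit 23.4% of all genes rose and 17.4% fell. In bulk RNA, fewer cells of a type and less RNA per cell cannot be told apart.

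Some reads also lay in genes that endothelium does not use. The 1431 olfactory and vomeronasal receptor genes measured this background, at 1.93 counts per kb of exon in fresh wild type and 2.42 in fresh mutant cells, and 0.156 and 0.468 after culture. Receptor transcripts may have been counted over their coding part only, which would raise the rates to 6.64, 8.34, 0.537 and 1.61 counts per kb. Both rates were applied to the exon length of each member. Lmo2, Fli1, Erg and Tal1 lay at least 6.57 times above the higher estimate in every library. Runx1 had 125 counts in fresh wild type cells against 23.2 or 79.8 expected from background, and 55 against 1.88 or 6.46 after culture. Myb had 112 against 17.2 or 59.3 before culture and 9 against 1.39 or 4.8 after it in wild type cells. Sfpi1, with 3 counts in the mutant library after culture against 1.26 or 4.34, was the only value of a member under the higher estimate. Ptprc, a long gene, stood at 0.997 CPM per kb of exon in fresh wild type cells, where Gfi1b, the lowest member, stood at 1.86. Its counts may thus be largely background, and the part of background in its fall was not tested.

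**Figure D1:**
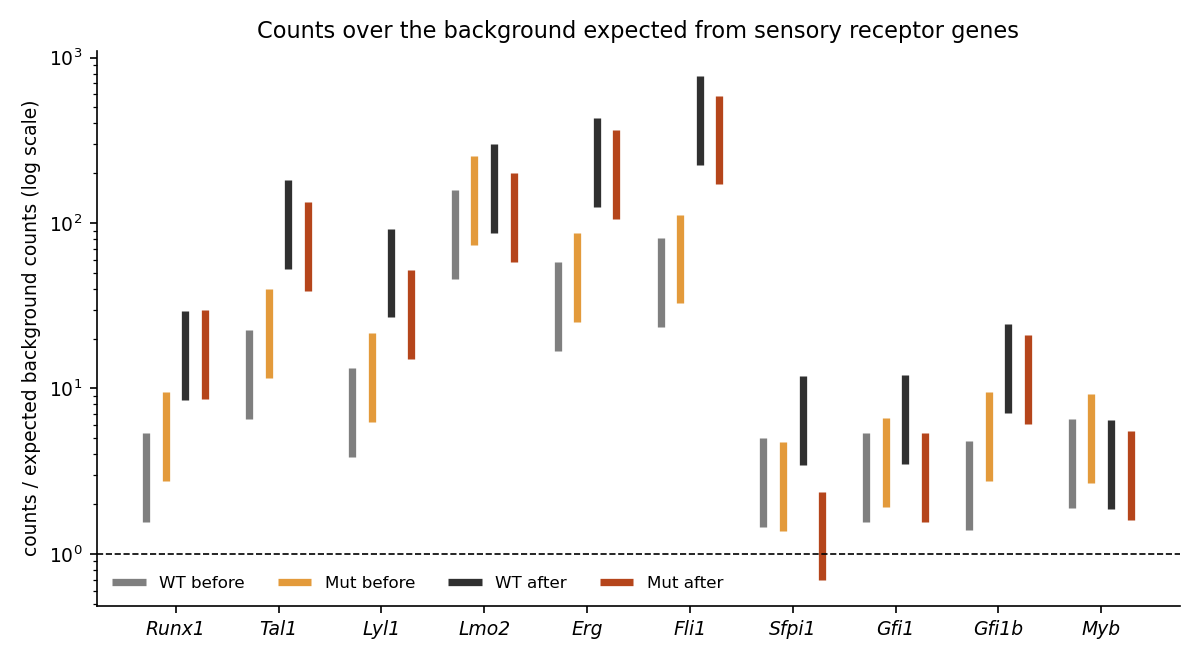
Counts of each member divided by the counts expected from background, on a log axis, for the 4 libraries (WT, wild type; Mut, mutant); each bar spans the value with the higher (lower end) to that with the lower background rate (upper end), and the dashed line marks 1. Lmo2, Fli1, Erg, Tal1 and Lyl1 stand well clear of 1, whereas the low ends of Runx1, Myb, Gfi1, Gfi1b and Sfpi1 before culture lie between 1.38 and 2.75.

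Per kilobase of exon, Lmo2, Fli1, Erg, Tal1 and Lyl1 were more abundant than Runx1, Myb, Gfi1, Gfi1b and Sfpi1. In wild type cells before culture the order was Lmo2 at 61.1, Fli1 at 31.3, Erg at 22.4, Tal1 at 8.75 and Lyl1 at 5.13 CPM per kb, with intervals that did not overlap between neighbours. The other 5 members lay between 1.86 CPM per kb for Gfi1b and 2.52 CPM per kb for Myb, and their intervals overlapped. After culture Fli1 stood first at 87.9 CPM per kb in wild type and 82.5 in mutant cells, then Erg at 48.7 and 50.8, and Lmo2 had moved to the third place at 34.3 and 28.0. Tal1 and Lyl1 kept the next places, at 20.6 and 10.5 CPM per kb in wild type cells, and Runx1 followed at 3.33, with an interval that overlapped that of Gfi1b. Exon lengths are those of all annotated exons of a gene, 12025 bases for Runx1 and 8933 for Myb, and may exceed the transcripts present.

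**Figure D2:**
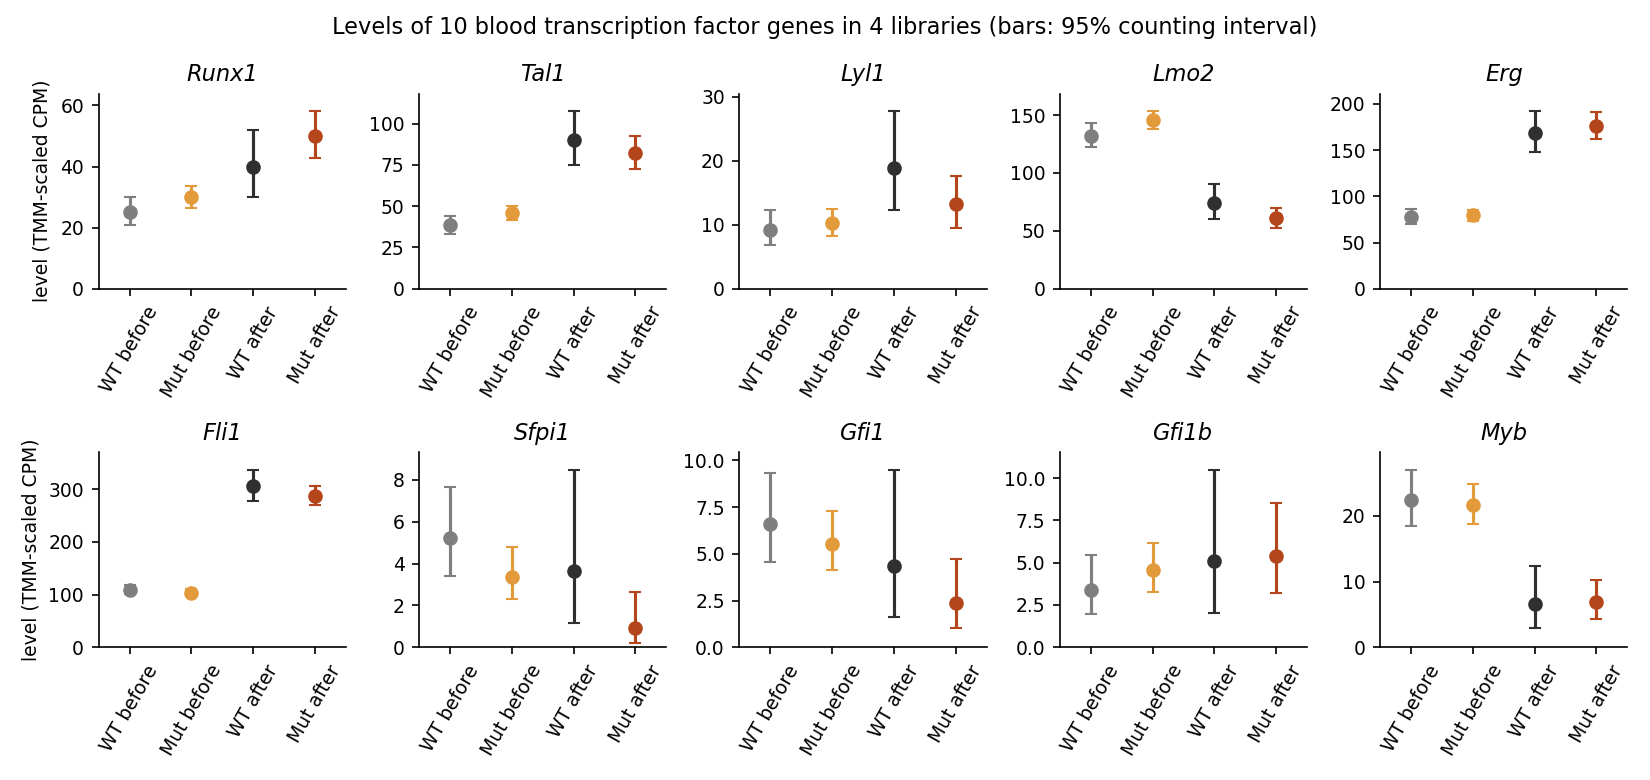
Level of each of the 10 genes in TMM-scaled CPM (vertical axis, from 0, scaled per gene) in the 4 libraries; points are single libraries and bars are exact Poisson 95% intervals. On this scale Erg, Fli1 and Tal1 are higher in both libraries after culture than in both before it, although Tal1 and Erg did not rise relative to pan-endothelial genes, and Lmo2 and Myb are lower.

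Culture was the contrast with a test. Since each genotype gave a pair of libraries, the effect of culture over both genotypes was fitted in edgeR with genotype as a term, which left 1 residual degree of freedom. The fit drew each gene's spread wholly from the trend over all genes, because the prior degrees of freedom were estimated as infinite. Adjusted p-values are Benjamini-Hochberg values over 18949 genes. They rest on the spread that all genes share between these 2 pairs, and a gene's own disagreement between its pairs does not enter. In this fit 4 of the 10 members rose after culture (Fli1, Erg, Tal1 and Runx1), 2 fell (Lmo2 and Myb) and 4 did not pass the threshold of 0.05. Of all genes tested, 23.4% rose and 17.4% fell. The median log2 fold was 0.48 over the members and -0.20 over all genes.

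The scale matters for these directions, since pan-endothelial genes rose as well. Scaling to total gene counts without TMM shifted the median log2 culture fold of all genes by -0.61 in wild type and -0.43 in mutant cells, and scaling to the 8 pan-endothelial genes shifted it by -1.155 and -0.97. Both also shifted the median genotype fold. Total gene counts shifted it by -0.11 before and 0.068 after culture, and pan-endothelial genes by -0.088 and 0.098. On the pan-endothelial scale the log2 fold of Erg was 0.049, of Tal1 -0.066 and of Runx1 -0.37, with none past the threshold in edgeR (adjusted p = 0.76, 0.73 and 0.11). Fli1 still rose there (log2 0.39, adjusted p = 0.0072 in edgeR), and Lmo2 and Myb fell, with log2 folds of -2.16 and -2.77. That scale sums raw counts, so genes with many counts weigh most, and Kdr gave 6326 of 18578 in fresh wild type cells. With TMM the log2 fold of Fli1 (1.45) lay above those of Kdr, Cdh5, Pecam1, Tie1 and Cldn5. It lay below those of Tek (1.66), Emcn (1.59) and Esam (3.12). The rise of Erg, Tal1 and Runx1 thus passed the test on the TMM scale, but not relative to the summed pan-endothelial genes. With total gene counts the rise of Runx1 did not pass either. On the pan-endothelial scale the fold of Runx1 was 0.699 (0.4995 to 0.967) in wild type and 0.832 (0.683 to 1.01) in mutant cells. Of the 10 members 1 rose and 4 fell on that scale, where 3.92% and 70.3% of all genes did.

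Among the ETS factors, Fli1 had the largest rise of the 10 members on the TMM scale. Its level was 109 and 103 CPM in wild type and mutant cells before culture and 306 and 288 CPM after it. Both cultured libraries lay far above both fresh ones. The fold was 2.81 (2.46 to 3.19) in wild type and 2.79 (2.55 to 3.06) in mutant cells, and the log2 fold over both was 1.45 (SE 0.17, adjusted p = 1.4e-15 in edgeR). Erg stood at 77.7 and 79.3 CPM before and 169 and 176 CPM after culture. Its folds were 2.17 (1.84 to 2.56) and 2.22 (1.99 to 2.48), with a log2 fold of 1.098 (SE 0.18, adjusted p = 6.3e-09 in edgeR) over both genotypes. Erg and Fli1 are close relatives, and their ratio within a library does not depend on scaling. Per kb, Erg was 0.716 times Fli1 in wild type and 0.775 times in mutant cells before culture, and 0.554 and 0.616 times after it. The ratio thus changed by a factor of 0.775 (0.630 to 0.952) in wild type and 0.795 (0.690 to 0.915) in mutant cells. Against Cdh5, the gene of VECAD, Fli1 changed 1.14-fold (0.993 to 1.30) in wild type and 1.30-fold (1.19 to 1.43) in mutant cells, whereas Erg changed 0.880-fold (0.744 to 1.04) and 1.04-fold (0.925 to 1.16).

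PU.1, the ETS factor of myeloid and B cells, was near the background. Sfpi1 had 26 and 31 counts in wild type and mutant cells before culture and 5 and 3 after it, or 5.22, 3.36, 3.64 and 0.897 CPM. The intervals of these levels overlapped except for mutant cells after culture against wild type cells before it. The log2 fold over both genotypes was -1.20 (SE 0.83, adjusted p = 0.23 in edgeR). The culture fold was 0.697 (0.209 to 1.84) in wild type cells and 0.267 (0.0522 to 0.855) in mutant cells, on 3 counts against 31. The call depends on which library is used: leaving out cultured wild type cells gave an adjusted p of 0.031, on the pan-endothelial scale it was 0.017, and over the alternatives of edgeR it ran to 0.78. The background estimate for these counts before culture was 5.19 to 17.9 in wild type and 6.52 to 22.5 in mutant cells.

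The bHLH factors and their adaptor did not move together. Tal1 was at 38.3 and 45.7 CPM before culture and 90.2 and 82.2 CPM after it in wild type and mutant cells. Both genotypes were higher after culture, by folds of 2.35 (1.86 to 2.97) and 1.80 (1.54 to 2.10), with a log2 fold of 0.98 (SE 0.20, adjusted p = 4.2e-06 in edgeR). Lyl1, its paralog, had 46 and 94 counts in fresh wild type and mutant cells and 26 and 44 in cultured ones. Its folds with culture were 2.05 (1.22 to 3.38) in wild type and 1.29 (0.880 to 1.86) in mutant cells, and the log2 fold of 0.63 (SE 0.38) did not pass the threshold (adjusted p = 0.17 in edgeR). Lyl1 exons overlap those of Nfix on the opposite strand, and the strand setting of the counting is not given in the sources used here. Per kb, Tal1 exceeded Lyl1 by 1.71 and 1.84 times before and 1.96 and 2.57 times after culture in wild type and mutant cells, and the change of that ratio held 1 in both genotypes.

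Lmo2, the most abundant member before culture, fell. It had 659 and 1339 counts in wild type and mutant cells before culture, or 132 and 145 CPM, and 102 and 203 counts after it, or 74.2 and 60.7 CPM. The intervals of fresh and cultured libraries did not overlap. The level was 1.78-fold lower (1.44 to 2.22) in wild type and 2.39-fold lower (2.06 to 2.79) in mutant cells, with a log2 fold of -1.103 (SE 0.18, adjusted p = 3.3e-08 in edgeR). Within a library, Lmo2 per kb was 6.98 and 6.43 times Tal1 before culture but only 1.66 and 1.49 times after it. That ratio was 4.19-fold lower (3.08 to 5.70) after culture in wild type and 4.31-fold lower (3.49 to 5.33) in mutant cells, whatever the scaling. Against Ldb1, the scaffold of the complex, Lmo2 was 4.69-fold (3.64 to 6.04) and 4.14-fold (3.48 to 4.92) lower.

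Runx1 was low throughout. It had 25.1 and 30.0 CPM in wild type and mutant cells before culture and 40.0 and 49.9 CPM after it. The cultured libraries were the higher pair, but the wild type interval after culture (30.1 to 52.1) overlapped the mutant interval before it (26.5 to 33.7). Its culture folds were 1.60 (1.14 to 2.21) in wild type and 1.67 (1.37 to 2.03) in mutant cells, and its log2 fold over both was 0.67 (SE 0.23, adjusted p = 0.010 in edgeR). Fits to 3 libraries had no genotype term, and without that term the call held on all 4 libraries (adjusted p = 0.0059) but was lost without fresh wild type cells (0.090) and without cultured mutant cells (0.17). It was also lost with total gene counts (0.48) and in DESeq2 (0.13), and the adjusted p ranged from 0.00036 to 0.48 over all alternatives. Subtracting background at the higher rate gave a log2 fold of 1.15, since that rate takes more counts from the libraries before culture. An antisense gene, Gm26626, overlaps Runx1 exons. Relative to Cbfb, which encodes the DNA-stabilising partner of RUNX1, Runx1 changed 1.27-fold (0.877 to 1.84) in wild type and 1.36-fold (1.08 to 1.72) in mutant cells, and 2.97-fold and 1.85-fold with background subtracted at the higher rate. Relative to Cdh5 it changed 0.646-fold (0.469 to 0.890) and 0.778-fold (0.640 to 0.945), but 1.57-fold and 1.08-fold with that subtraction, so this direction depends on the background taken.

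The repressor genes Gfi1 and Gfi1b gave few counts. Gfi1 had 33 and 51 counts before culture and 6 and 8 after it, or 6.62, 5.54, 4.37 and 2.39 CPM. Gfi1b had 17, 42, 7 and 18 counts in the same order, or 3.41, 4.56, 5.09 and 5.38 CPM. Neither passed the threshold, with log2 folds of -0.97 (SE 0.67, adjusted p = 0.23 in edgeR) for Gfi1 and 0.34 (SE 0.66, adjusted p = 0.68 in edgeR) for Gfi1b. The culture folds of Gfi1 were 0.659 (0.226 to 1.59) in wild type and 0.432 (0.177 to 0.917) in mutant cells, and those of Gfi1b 1.49 (0.523 to 3.79) and 1.18 (0.640 to 2.10). On the pan-endothelial scale Gfi1 fell (adjusted p = 0.0085 in edgeR). Gfi1 per kb was 0.255 times Gfi1b (0.0960 to 0.617) in mutant cells after culture, the only library in which the interval of this ratio excluded 1. A noncoding gene, A430072P03Rik, overlaps Gfi1 exons on the opposite strand.

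Myb, a factor of definitive blood progenitors, fell after culture. Its counts were 112 and 200 before and 9 and 23 after culture, or 22.5 and 21.7 CPM against 6.55 and 6.88 CPM. The level was 3.43-fold lower (1.745 to 7.70) in wild type and 3.16-fold lower (2.045 to 5.09) in mutant cells, with a log2 fold of -1.74 (SE 0.37, adjusted p = 2.0e-05 in edgeR). With background subtracted at the lower and higher rates the log2 fold was -1.88 and -2.52. As a multiple of background, however, Myb in wild type cells hardly changed. It stood at 6.51 or 1.89 times the lower or higher estimate before culture and at 6.46 or 1.88 times after it. In mutant cells it stood at 9.25 or 2.68 times before and 5.51 or 1.60 times after culture. The part of background in the fall of Myb was not tested. An antisense gene, Gm26577, overlaps Myb exons. Relative to Runx1 in the same library, Myb was 5.48-fold (2.59 to 11.6) and 5.26-fold (3.28 to 8.44) lower after culture.

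**Figure D3:**
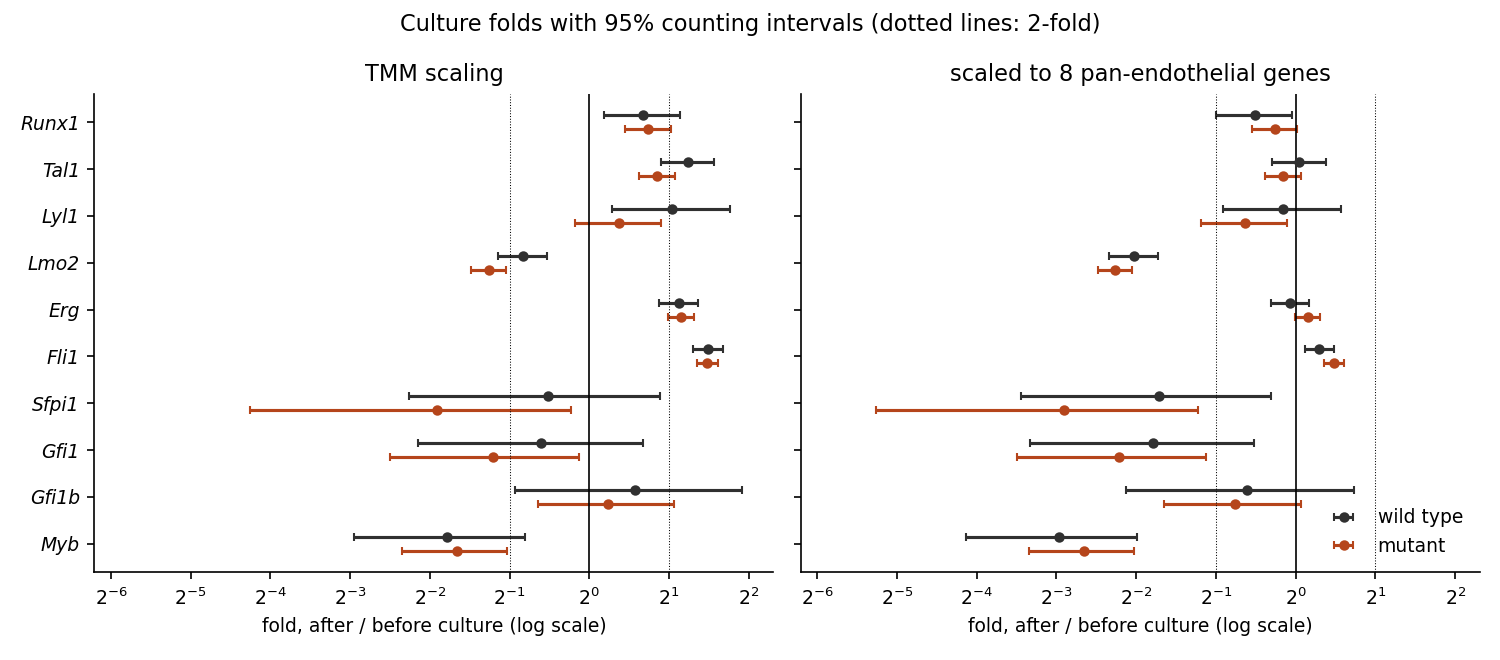
Fold of the level after culture over that before it (log axis) for each member in wild type and mutant cells, scaled by TMM (left) or to 8 pan-endothelial genes (right); bars are 95% counting intervals, the solid line marks 1 and the dotted lines 2-fold. Fli1, Erg, Tal1 and Runx1 lie right of 1 on the left panel, while on the right panel the interval of Fli1 alone lies wholly above 1 in both genotypes and Lmo2 and Myb lie far below it.

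By the stricter rule for 2 libraries, that the whole counting interval lie past 2-fold in genes reaching 20 counts in 1 of them, 1 of the 9 members tested in wild type cells (Gfi1b had too few counts) was called higher (Fli1) and none lower, where 8.17% and 5.77% of all genes were called. In mutant cells Fli1 was called higher and Lmo2 and Myb lower among 10 tested, where 5.19% and 3.62% of all genes were called.

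The other comparison sets the mutant library against the wild type library in each culture state. No member was called between genotypes. Before culture all 10 could be tested, and of all genes 0.0158% were higher in mutant cells by this rule and 0.0475% lower. After culture 7 could be tested, with 0.244% and 0.0731% of all genes called; Sfpi1, Gfi1 and Gfi1b had too few counts. For the best measured members, counting error bounded the ratio of these libraries closely. Without replicates this does not bound an effect of the deletion. The mutant to wild type fold of Fli1 was 0.943 (0.848 to 1.05) before and 0.939 (0.837 to 1.06) after culture, and that of Erg was 1.02 (0.902 to 1.16) and 1.04 (0.895 to 1.22). Runx1 was 1.19 (0.963 to 1.49) and 1.25 (0.915 to 1.73), or 1.82 (1.08 to 3.05) before culture with background subtracted at the higher rate. Tal1 and Lmo2 were 1.19 (1.002 to 1.42) and 1.099 (1.0003 to 1.21) before culture, intervals that held 1 with DESeq2 size factors, and 0.912 (0.735 to 1.14) and 0.818 (0.642 to 1.05) after it. Myb was 0.966 (0.763 to 1.23) before and 1.05 (0.468 to 2.58) after culture, and Lyl1 1.11 (0.769 to 1.61) and 0.696 (0.419 to 1.18). The low-count members were less certain, with Gfi1 at 0.836 (0.529 to 1.34), Gfi1b at 1.34 (0.745 to 2.50) and Sfpi1 at 0.645 (0.371 to 1.13) before culture.

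Whether culture changed the genotype fold was read from the ratio of the 2 folds. Lmo2 was the only member whose ratio had an interval clear of 1, at 0.744 (0.577 to 0.961), and the interval held 1 with total gene counts, at 0.841 (0.651 to 1.09), and on the pan-endothelial scale, at 0.848 (0.657 to 1.095). Tal1 stood at 0.765 (0.582 to 1.004), or 0.740 (0.564 to 0.972) with DESeq2 size factors, Fli1 at 0.996 (0.852 to 1.16), Erg at 1.02 (0.840 to 1.24) and Runx1 at 1.05 (0.721 to 1.51). With 1 library per group these intervals cover counting error only and have no replicate check. Stromal markers were 1.60 times higher (1.57 to 1.63) in the mutant library before culture and 0.835 times (0.787 to 0.887) the wild type level after it, and mast cell markers summed to 126 CPM in cultured wild type and 15.3 CPM in cultured mutant cells. Their part in these folds was not tested.

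**Figure D4:**
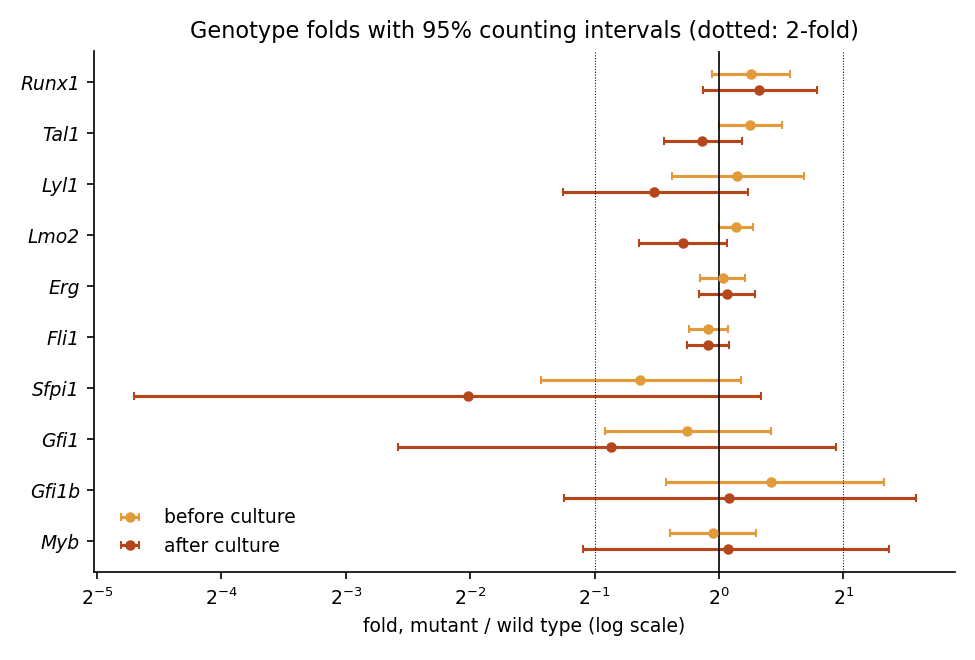
Fold of the mutant over the wild type level (log axis) for each member before and after culture; bars are 95% counting intervals, the solid line marks 1 and the dotted lines 2-fold. No member's interval lies beyond 2-fold, and the widest intervals belong to Sfpi1, Gfi1, Gfi1b and, after culture, Myb.

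Genes that work with these factors were read from 5 lists. Of 18 complex partners, 9 rose after culture over both genotypes and 1 fell in edgeR, where 23.4% and 17.4% of all genes did. Their median log2 fold was 0.46. On the pan-endothelial scale 2 rose and 13 fell, where 3.92% and 70.3% of all genes did. Cbfa2t3, a corepressor found in the TAL1 complex, rose most, by a fold of 6.32 (5.42 to 7.39) in wild type and 4.44 (3.996 to 4.94) in mutant cells. Id2, an inhibitor of bHLH dimers, had folds of 3.31 (2.90 to 3.77) and 2.25 (2.05 to 2.47), and Ldb1 rose by 1.04 on the log2 scale (SE 0.17, adjusted p = 2.6e-08 in edgeR). Tcf4, an E-protein partner of TAL1, rose by 0.90 on the log2 scale (SE 0.17), while the E-protein genes Tcf3 and Tcf12 did not pass (adjusted p = 0.094 and 0.91 in edgeR). Runx1t1, a relative of Cbfa2t3, was the list's only gene to fall (log2 -1.48, SE 0.28, adjusted p = 1.0e-06 in edgeR).

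Of the family relatives, 14 of 15 were tested, and 5 rose and 0 fell, where 23.4% and 17.4% of all genes did. Their median was 0.087, and 0 fell in DESeq2 or at an unadjusted p under 0.05 in edgeR. Scaling to pan-endothelial genes left 1 that rose and 10 that fell, a share near the 70.3% of all genes. Ets1, an ETS factor of endothelium and lymphocytes, had folds of 3.71 (3.42 to 4.02) and 2.90 (2.75 to 3.07) with culture, and Elf1 2.63 (2.19 to 3.15) and 2.01 (1.77 to 2.29). The other RUNX genes did not pass: Runx2 had a log2 fold of 0.087 and Runx3, at 4 and 12 counts after culture, of -0.96. Mybl2, the cell cycle relative of Myb, had a log2 fold of 0.067 (SE 0.24) and did not pass.

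Of the 17 other factors of haemogenic endothelium and blood 6 rose and 3 fell, with a median of -0.65, against 23.4% and 17.4% of all genes. On the pan-endothelial scale 3 rose and 13 fell, against 3.92% and 70.3%. Those that rose included Irf8, an interferon and myeloid factor, at 5.61-fold (4.14 to 7.64) in wild type and 4.63-fold (3.76 to 5.72) in mutant cells, Hhex at 3.29-fold (2.78 to 3.90) and 3.07-fold (2.73 to 3.44), and Sox18, a factor of endothelial and lymphatic development, at 3.55-fold (2.99 to 4.204) and 2.61-fold (2.34 to 2.92). Those that fell were Bcl11a, a lymphoid and globin regulator (log2 -2.74, SE 0.40), Ikzf1, a lymphoid factor (-1.77, SE 0.53), and Mecom, a stem cell and endothelial factor (-1.06, SE 0.24). Bcl11a and Ikzf1 stood at only 1.71 and 2.19 CPM per kb before culture in wild type cells. The part of background in their falls was not tested. Sox17, a factor of haemogenic endothelium, had a log2 fold of -0.014 (SE 0.23) and did not pass.

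Of 12 blood targets 3 rose and 3 fell, shares near the 23.4% and 17.4% of all genes, with a median of -0.68, and in DESeq2 2 rose and 0 fell. Itga2b, an integrin gene that marks early blood progenitors and platelets, was 12.02-fold (9.21 to 15.8) and 12.2-fold (10.1 to 14.9) higher after culture, and Csf2rb, a beta chain of cytokine receptors, 16.3-fold (12.8 to 21.1) and 11.2-fold (9.66 to 13.1). Csf1r, a target of PU.1 and RUNX1 in macrophages, had a fold of 0.210 (0.0826 to 0.445) in wild type cells, on 7 counts against 121, and 0.548 (0.378 to 0.776) in mutant cells, with a log2 fold of -1.36 (SE 0.35, adjusted p = 0.00047 in edgeR) over both genotypes. Megakaryocyte markers moved beside it: the summed level of 8 of them, Itga2b included, was 53.4 and 49.0 CPM before and 346 and 332 CPM after culture. Itgb3, the gene of the integrin chain that pairs with that of Itga2b, rose as well, 8.10-fold (6.36 to 10.4) in wild type and 7.48-fold (6.29 to 8.93) in mutant cells, and these 2 genes made up most of the sum. Among the others, Gp1ba had 12 and 20 counts after culture and did not pass (adjusted p = 0.39 in edgeR), Pf4 had 0 and 4, Gp9 and Gp1bb were at 0 in cultured wild type cells and Ppbp in cultured mutant cells. Their part in the rise of Itga2b was not tested.

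Endothelial targets rose in 10 of 12 and fell in 2, where 23.4% and 17.4% of all genes did. Their median log2 fold was 1.49. The pan-endothelial scale gives no separate check of this list, since 6 of the 12 are among the 8 genes that define it. Eng had folds of 14.3 (13.4 to 15.3) and 11.1 (10.6 to 11.6), Egfl7 5.10 (4.69 to 5.55) and 4.07 (3.85 to 4.30), Cdh5 2.47 (2.36 to 2.58) and 2.14 (2.08 to 2.21) and Tie1 2.35 (2.19 to 2.51) and 1.68 (1.61 to 1.76), in wild type and mutant cells in each case. Vwf and Cldn5 fell, with log2 folds of -1.59 (SE 0.19) and -0.65 (SE 0.18).

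**Figure D5:**
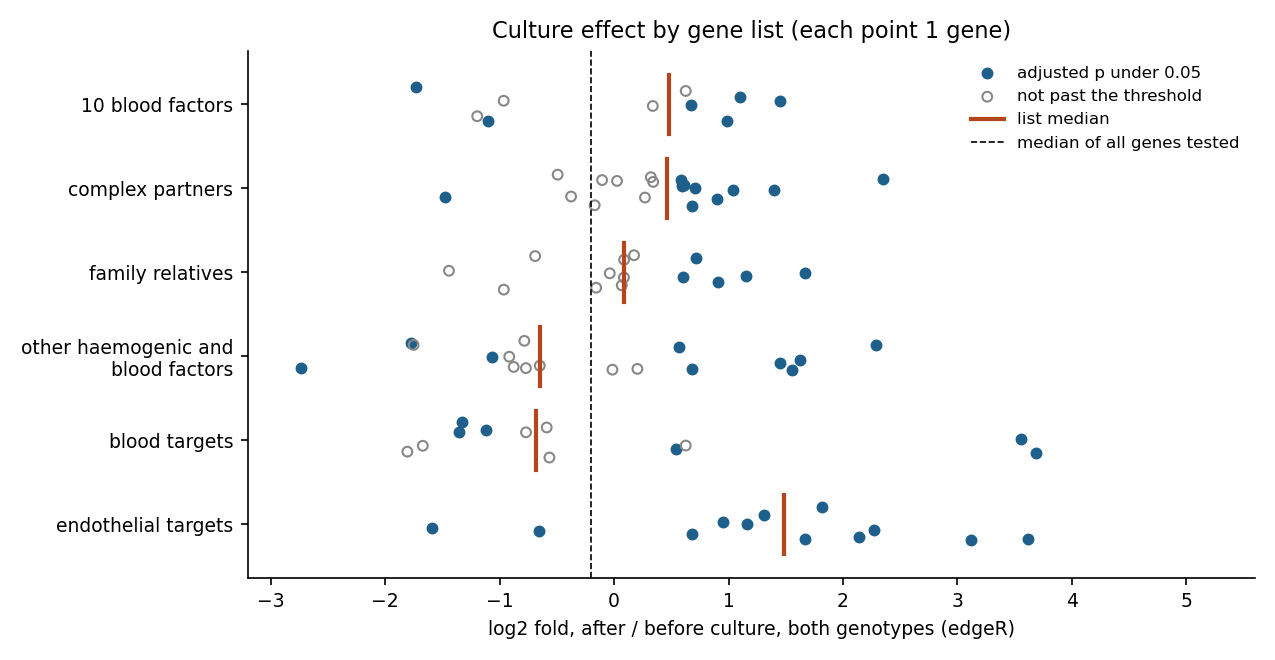
Log2 fold of culture over both genotypes from edgeR (horizontal axis) for each tested gene of the members and of 5 lists; filled points passed an adjusted p of 0.05, open points did not, the vertical position within a list is arbitrary, the solid bar is the list median and the dashed line the median of all genes, -0.20. Endothelial targets lie mostly to the right, while the other haemogenic and blood factors and the blood targets spread to both sides.

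Between genotypes no gene of these 5 lists was called in either culture state. Of all genes, 0.0158% were called higher and 0.0475% lower before culture, and 0.244% and 0.0731% after it. The median log2 folds of mutant over wild type before culture were 0.19 for complex partners, 0.16 for family relatives, 0.068 for other blood factors, -0.070 for blood targets and 0.16 for endothelial targets, beside 0.040 over all genes. After culture they were -0.11, -0.16, -0.11, 0.015 and -0.091, beside 0.0040 over all genes. Over the members themselves the median was 0.083 before and -0.090 after culture.

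The genes whose levels ran most like each well counted member were sought among 52 list genes, by the root mean square difference of mean-centred log2 levels over the 4 libraries, a measure that scaling leaves unchanged. Erg was nearest to Cdh5 (0.074) and Tcf4 (0.13), and Tal1 to Tie1 (0.051) and Tcf4 (0.088). Fli1 was nearest to Hhex (0.0999) and Tek (0.11), and Runx1 to Meis1 (0.062) and Etv6 (0.14). Lmo2 had no neighbour as close, with Mecom at 0.18 and Cldn5 at 0.23. With 4 libraries this only describes their order and spacing.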

How the data were processed

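RNA of 4 libraries of sorted mouse lymphatic endothelial cells was counted per gene symbol. The deposited values are raw counts per gene, made with bcl2fastq, STAR and HTSeq 0.11.2 on mm10 per the submitters' processing notes, and the deposited tables' names state that duplicates were removed with sambamba. For annotation and strand setting, nothing is given in the sources used here. The 5 HTSeq summary classes were left out of totals; reads in no annotated gene made up 20.0% to 66.5% of all HTSeq records, so genes with few counts were read against background.

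Exon lengths came from GENCODE vM21 on GRCm38 (98.0% of symbols), and older symbols were matched through RefSeq synonyms. Counts were scaled with TMM in edgeR 4.0.16 (R 4.3.3). Folds between 2 libraries carry 95% Clopper-Pearson intervals of counting error, since 1 library per group allows no test; the labels mention no molecular identifiers, so read pairs may not be independent molecules. The additive edgeR quasi-likelihood fit of genotype and culture kept genes with at least 20 counts in 1 library; nothing in the labels says that libraries are separate cultures beyond the 2 litter pools. Genotype was not tested, since libraries before and after culture share their pools. List medians between libraries used a prior count of 2. DESeq2 1.42.0 served as an alternative, with other scalings, no count filter, background subtraction, a point estimate rule and each library left out.

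On simulated counts with a true 4-fold change the additive fit recovered 97.0% of 200 changed genes with 9 false calls among 17919 genes. That simulation gave every gene the same dispersion and no change of background with culture, so its false call number need not hold here. The interval rule recovered 84.0% before culture (19292 genes), 82.5% after culture (11942 genes), 80.0% for wild type culture (14982 genes) and 84.5% for mutant culture (17626 genes). The members and lists were chosen with earlier results of these data known. Named were all 10 members, from each list the best counted genes (3 called ones at most, or 2 if no gene was called), and the 2 nearest neighbours of members with at least 50 counts in every library. Tcf3, Tcf12, Tcf4, Ldb1, Runx1t1, Runx2, Runx3, Mybl2, Sox17, Bcl11a, Ikzf1, Mecom, Vwf, Cldn5 and the single marker genes were named from the lists after their values were seen.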

Additional observations from a re-analysis of the deposited data

How the results depend on the processing

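Between genotypes, the number of members called was 0 in each direction before and after culture under all 7 alternatives of each comparison. With culture of wild type cells, 1 member was called higher and 0 lower; total gene counts without TMM and scaling to pan-endothelial genes each gave 0 higher and 2 lower, a point estimate beyond 2-fold 4 higher and 1 lower, and background subtracted at the coding rate 0 higher and 1 lower. With culture of mutant cells, 1 was called higher and 2 lower; DESeq2 size factors gave 2 higher, total gene counts 0 higher, pan-endothelial scaling 0 higher and 4 lower, and a point estimate 2 higher and 4 lower. Over both genotypes 4 members rose and 2 fell, and pan-endothelial scaling, chosen after seeing the data as were both background subtractions in that fit, left 1 that rose and 4 that fell. Scaling to total gene counts or to pan-endothelial genes lowered every culture fold between 2 libraries, by the same factor for all genes within a genotype.

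Leaving out each library in turn, which also drops the genotype term so that 1 residual degree of freedom remains, left 3 to 4 members that rose and 2 to 3 that fell. A fit with no genotype term (no replicate block) called the same number of members, 4 and 2; the genotype pairs the libraries by litter pool. The log2 fold of Gfi1b turned to -0.14 with total gene counts and to -0.69 on the pan-endothelial scale, where Runx1, Tal1 and Lyl1 turned to -0.37, -0.066 and -0.42; without fresh mutant cells Gfi1b had too few counts to fit. Of all genes tested, 4431 rose and 3301 fell in edgeR; 3062 and 846 did in DESeq2, 1958 and 6617 with total gene counts, 742 and 13325 on the pan-endothelial scale, 3267 and 1695 without the wild type library before culture and 3305 and 2220 with background subtracted at the coding rate. Gfi1b before culture had a genotype fold of 2.57 with that subtraction. Depth limits Sfpi1, Gfi1 and Gfi1b most: 1 count in the wild type library after culture is worth 0.728 CPM.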
